A study of Mus musculus with 36 samples.

Results

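The later weeks of direct cardiac reprogramming were examined by comparing open chromatin at days 14 and 21 with that at day 7. The members of this comparison were the 9 libraries whose labels give those days, namely 3 of day 14 and 3 of day 21, 6 in all, set against 3 of day 7. They were chosen by label alone, from 18 libraries with a column of counts and 36 samples in the labels, and no fibroblast library entered the contrast. The assay was ATAC-seq: a transposase cuts and tags DNA wherever nucleosomes and other proteins leave it exposed, so that the number of reads over a region rises with its openness.

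All cells came from neonatal hearts of Cd-1 mice of the genotype alpha-MHC-GFP, whose green reporter is driven by a promoter of cardiac myosin heavy chain. Cells grown out of the tissue that carried the surface protein Thy1 and lacked GFP, largely fibroblasts, received retroviruses for Gata4, Mef2c and Tbx5 (GMT). They were kept with sb431542, which blocks TGF-beta signalling, and xav939, which blocks Wnt signalling, and GFP-positive cells were sorted at days 2, 3, 7, 14 or 21. The 9 libraries of the contrast therefore share the reporter, the factors, both inhibitors and the GFP sort, and differ by label only in the day of harvest. The labels name sequencing cores without assigning libraries to them, so a difference in core cannot be told apart from day. The day 2 and day 3 libraries (3 each, same virus and inhibitors) and 3 libraries of fibroblasts infected with dsRed virus, given no inhibitor and sorted for dsRed at day 7, served as reference points outside the contrast. Since the sort keeps cells in which the reporter is on, each later day describes the cells that were positive on that day, and a change in the cells and a change in which cells pass the gate cannot be told apart. In such bulk libraries, fewer cells with an open region and less openness per cell likewise cannot be told apart.

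Gata4, Mef2c and Tbx5 are transcription factors of the developing heart that together can turn on cardiac genes in fibroblasts. Gata4 belongs to a family known to bind sites in closed chromatin. Active promoters and enhancers are usually open, while regions that lose their bound factors tend to be covered by nucleosomes again. TGF-beta and Wnt signalling favour the fibroblast state in such cultures, which is the usual reason for blocking them during reprogramming.

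Library totals lay between 10.5 and 16.4 M counts at day 7 and between 4.82 and 21.4 M at days 14 and 21, over chromosomes 1 and 10 to 16 and part of chromosome 17. One region alone, on chromosome 1, held 23.8 to 32.9% of counts at day 7 and 5.35 to 31.4% later, so levels are given as CPM, counts per M of a library total scaled by trimmed means of log ratios (TMM). Leaving that region aside, the tenth of tested peaks with the highest level took 44.1 to 47.9% of a day 7 library and 31.2 to 45.1% of a later one. The lowest of these shares was that of day 14 replicate 3, and in the other later libraries the share began at 36.4%. Day 14 replicate 3 also stood apart on the main principal component of the 9 libraries (29.5% of variance), at 271 against 19.4 or less for the others. Outside the contrast, replicate 1 of day 2 and replicate 1 of day 3 stood apart from the other libraries. They held 2.29 and 2.95 M counts, the lowest totals among the GMT libraries. With them in the fit the estimated spread was higher and fewer peaks passed the filter (144810 against 181081). The counts below differ between both fits, and the cause of that difference was not tested.

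Few changes over the later weeks were detected in the fit of all 18 libraries, and the regions that passed the test there were all less open than at day 7. Of 144810 peaks tested, 18 were called (0.0124%), of which 0 were higher and 18 were lower at days 14 and 21, at an adjusted p under 0.05 in edgeR's quasi-likelihood test. The falls ranged from 2.18-fold to 4.56-fold (log2 fold changes of -1.12 to -2.19, median -1.43), while the median over all peaks tested was 0.00. At an unadjusted p under 0.05 there were 4634 higher and 6257 lower peaks, together 7.52% of those tested. In 4179 peaks (2.89%) all 6 later libraries lay below all 3 of day 7, and in 2622 (1.81%) all 6 lay above. Among the 18 falls, 13 had all 6 later libraries below day 7. In the remaining 5, day 7 overlapped the later range through replicate 2, the lowest day 7 library in 17 of the 18 falls and in 48279 of all 144810 peaks.

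The number of calls differed when single libraries of day 7, or those outside the contrast, were left out. It was 0 without day 7 replicate 1, 50 (1 higher, 49 lower) without replicate 2 and 4 (1 higher, 3 lower) without replicate 3. It was 40 without day 14 replicate 2 and 29 without day 21 replicate 1, and 12 to 17 without each of the other later libraries. Without the day 2 and day 3 libraries that stand apart it was 697, of which 42 were higher and 655 lower. Each fit filtered anew, so these counts are not over equal sets of peaks. With all 18 libraries 144810 peaks were tested. Without day 14 replicate 2 or 3, or day 21 replicate 1 or 2, that number was 199644 to 205695. Without the day 2 and day 3 libraries that stand apart 181081 were tested. All 18 falls kept a negative fold change without day 7 replicate 1, between -1.89 and -0.79 on the log2 scale.

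**Figure D1:**
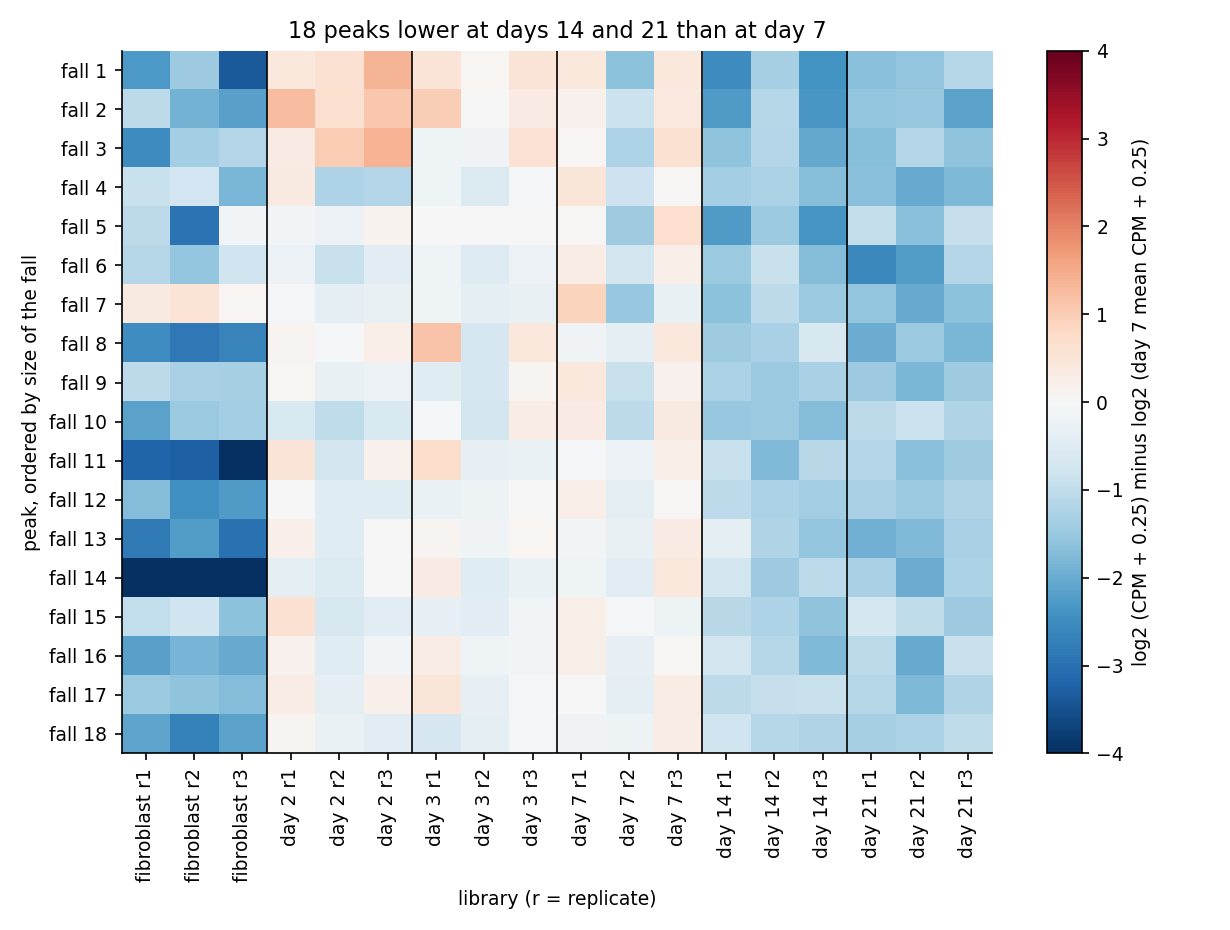
Heat map of the 18 peaks that were lower at days 14 and 21 than at day 7, numbered by size of the fall from 1 to 18 (rows), in all 18 libraries (columns). Colour gives log2 (CPM + 0.25) minus log2 (mean day 7 CPM + 0.25). The 6 columns of days 14 and 21 are blue in every row, days 2 and 3 are mostly pale or red, and the fibroblast columns are blue except in fall 7 and, for replicate 3, the pale fall 5.

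The fall with the smallest p lay on chromosome 12 at 17009526 to 17010742 (mouse build mm9, per the submitters' processing notes, for all positions here). Its CPM values were 6.60, 3.08 and 7.66 at day 7, 0.992, 2.47 and 0.950 at day 14, and 1.78, 1.85 and 1.10 at day 21 (replicates 1, 2 and 3). All 6 later libraries were below all 3 of day 7, with day 7 replicate 2 and day 14 replicate 2 closest to each other. The fall was 4.01-fold (edgeR log2 fold change -2.002 with SE 0.29, adjusted p 0.000459). It kept its call in 19 of 21 alternatives, the exceptions being library totals alone and the fit without day 7 replicate 1, where its adjusted p was 0.0509. Earlier, the same peak stood at 14.1, 9.08 and 12.4 CPM at day 2 and at 11.6, 5.90 and 7.35 CPM at day 3, against 2.65, 1.39 and 1.08 CPM in fibroblasts. Day 2 was thus its highest point, and at days 14 and 21 its range met that of the fibroblasts.

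Downstream lay 2 more of the 18 falls, at 17012062 to 17012529 and at 17013480 to 17014561, so that the 3 together span 5035 bases. The first of these held 3.24, 0.571 and 3.18 CPM at day 7, and 0.198, 0.773 and 0.238 CPM at day 14, then 0.557, 0.616 and 0.912 CPM at day 21. It had the largest fall of the 18 (edgeR log2 fold change -2.19 with SE 0.41, adjusted p 0.0183), but at low counts, 5 to 49 per day 7 library, and its day 7 replicate 2 overlapped the later libraries. The other went from 2.91, 1.03 and 4.28 CPM at day 7 to between 0.475 and 1.08 CPM in the 6 later libraries (median 0.724; edgeR log2 fold change -1.81 with SE 0.36, adjusted p 0.0347), again with day 7 replicate 2 inside the later range. Over all 3 peaks together, the summed level was 2.79 ± 0.549 CPM (SD, n = 3) in fibroblasts, 21.9 ± 3.94 at day 2, 14.4 ± 3.33 at day 3, 10.8 ± 5.47 at day 7, 2.64 ± 1.47 at day 14 and 3.09 ± 0.408 at day 21. The stretch was therefore most open at day 2 and at day 14 its mean was no higher than in fibroblasts. Its fall between days 2 and 3 and day 7 did not pass the test in any of its 3 peaks (log2 fold changes -0.61 to -0.71).

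The 3 falls sit among other tested peaks that leaned the same way. Between them and just before them, the peaks at 17008974, 17011151, 17011634 and 17012607 had log2 fold changes of -1.67, -2.20, -1.74 and -2.04, none of them called (adjusted p 0.063 to 0.22 in edgeR). The strongest peak of the neighbourhood, 17004606 to 17007880, went from a mean of 89.95 CPM at day 7 to 52.8 CPM over the 6 later libraries (log2 fold change -0.77, adjusted p 0.47 in edgeR). Beyond the stretch, the next peaks at 17015920 and 17017144 had values of -0.13 and -0.48 (the latter the stronger, 15.2 CPM at day 7 and 10.8 later), and those at 17022025 and 17023523 had -0.07 and -0.10. The peaks within the stretch share a neighbourhood and are not independent.

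**Figure D2:**
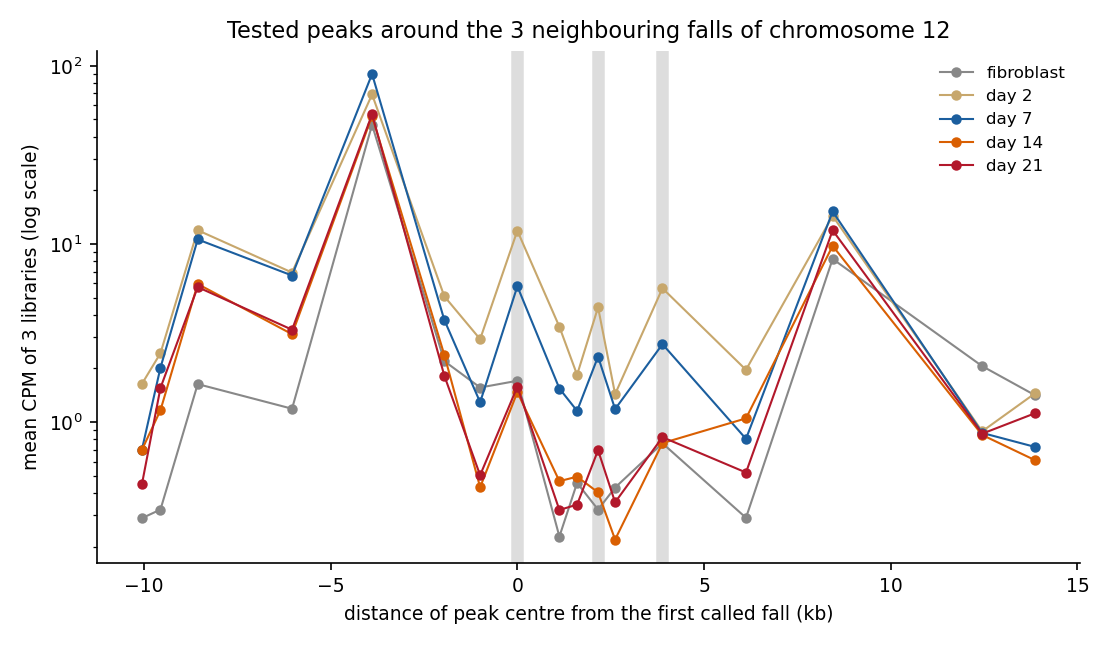
Mean CPM of 3 libraries (log scale) for the 17 tested peaks around the 3 neighbouring falls of chromosome 12, against distance of each peak's centre from the fall at 17009526 (kb), for 5 groups; grey bands mark the 3 falls. At the bands, days 14 and 21 lie with the fibroblasts, day 7 lies above them and day 2 highest, while the strong peak about 4 kb upstream keeps most of its level.

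In 6 of the 18 falls, every library of days 14 and 21 was still above every fibroblast library. How many of all tested peaks share this was not counted, so it cannot be read as particular to the falls. On chromosome 16, the peak at 36928374 to 36929767 held 7.46, 6.28 and 11.04 CPM at day 7, then 2.91, 3.25 and 5.23 CPM at day 14 and 1.90, 2.77 and 2.16 CPM at day 21. None of the later libraries reached the day 7 range (edgeR log2 fold change -1.54 with SE 0.26, adjusted p 0.00603), and fibroblasts held 0.925 to 1.28 CPM. It was higher than in fibroblasts at day 14 (log2 fold change 1.64, adjusted p 0.0038) but did not pass that test at day 21 (0.96, adjusted p 0.12, both in edgeR). Likewise on chromosome 1, the peak at 78275156 to 78276298 held 6.80, 5.94 and 9.45 CPM at day 7, 5.75, 3.09 and 2.38 CPM at day 14 and 1.78, 2.00 and 2.83 CPM at day 21. Here the groups were only just apart, since day 14 replicate 1 lay next to day 7 replicate 2 (edgeR log2 fold change -1.27 with SE 0.25, adjusted p 0.0326).

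Other such peaks had higher counts. On chromosome 11, the peak at 17758825 to 17760985 held 28.1, 24.7 and 33.6 CPM at day 7, 15.5, 8.35 and 13.3 CPM at day 14 and 12.7, 8.93 and 10.7 CPM at day 21, against 1.44 to 2.92 CPM in fibroblasts. It fell 2.48-fold (edgeR log2 fold change -1.31 with SE 0.26, adjusted p 0.0347) and remained 2.29 and 2.08 above fibroblasts on the log2 scale at days 14 and 21. On chromosome 10, the peak at 75370237 to 75371476 was nearly empty in fibroblasts, at 0.274, 0.463 and 0.00 CPM. Its values were 15.7, 13.3 and 24.0 CPM at day 7, 10.5, 6.34 and 8.32 CPM at day 14 and 7.02, 4.31 and 7.20 CPM at day 21. Every later library was below day 7 (edgeR log2 fold change -1.27 with SE 0.24, adjusted p 0.0194), and every one was above every fibroblast library (log2 fold change against fibroblasts 4.45 at day 21).

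On chromosome 11, 2 falls lay 44344 bases apart and behaved differently. The peak at 118206076 to 118207801 held 24.5, 15.3 and 20.7 CPM at day 7, 9.65, 8.19 and 7.60 CPM at day 14 and 8.03, 7.08 and 8.64 CPM at day 21. The later values were tight and well below day 7 (edgeR log2 fold change -1.29 with SE 0.23, adjusted p 0.00661), with fibroblasts at 3.47 to 5.93 CPM. The peak at 118157302 to 118161732, the widest of the 18 at 4430 bases, was open in fibroblasts, at 24.3, 28.0 and 19.8 CPM. Its day 7 libraries were far apart, at 35.2, 6.40 and 15.2 CPM, and the later ones lay at 5.95, 8.96, 6.65, 6.13, 4.46 and 5.90 CPM, so that day 7 replicate 2 overlapped them. It was the single fall of the 18 called lower than in fibroblasts at days 14 and 21 (log2 fold changes -1.76 and -2.12). Without day 7 replicate 1, where 0 of the 18 kept their call, its late change was the smallest of the 18, at -0.79 (adjusted p 0.634 in edgeR).

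In other falls the later libraries came down to the level of fibroblasts or near it. On chromosome 14, the peak at 54891135 to 54892984 went from 6.40, 2.40 and 4.58 CPM at day 7 to between 0.923 and 1.70 CPM in the 6 later libraries, median 1.21 (edgeR log2 fold change -1.80 with SE 0.31, adjusted p 0.00603), with fibroblasts at 1.08 to 2.55 CPM. On chromosome 1, the peak at 169297494 to 169299015 went from 5.61, 2.63 and 5.37 CPM to between 0.557 and 2.32 CPM, median 1.32 (edgeR log2 fold change -1.68 with SE 0.30, adjusted p 0.00661). In both, the later libraries were all below day 7, and neither peak was called against fibroblasts at day 2 or day 3. On chromosome 12, the peak at 114006762 to 114010494 went from 37.0, 14.6 and 31.0 CPM to between 7.54 and 11.3 CPM, median 10.0, where fibroblasts held 10.8 to 13.2 CPM (edgeR log2 fold change -1.47 with SE 0.25, adjusted p 0.00603). Also on chromosome 1, the peak at 79751674 to 79752584 came down from 12.5, 10.2 and 9.25 CPM to between 3.33 and 6.47 CPM, median 4.54 (edgeR log2 fold change -1.21 with SE 0.24, adjusted p 0.0347).

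The other 5 falls were the peaks at 14047314 on chromosome 17 (log2 fold change -1.79), 77061472 on chromosome 10 (-1.40), 73968786 on chromosome 1 (-1.19), 56256333 on chromosome 10 (-1.18) and 97316941 on chromosome 11 (-1.12), with adjusted p of 0.0208 to 0.0370 in edgeR. In the last 3, all of moderate to high level, the later libraries lay between 3.39 and 11.04 CPM and the day 7 libraries between 9.71 and 21.5 CPM. At the edge of the call, just inside at an adjusted p of 0.0370, were 73968786 on chromosome 1 and 14047314 on chromosome 17. Just outside, at 0.0518, were 8788926 to 8789265 on chromosome 14 (log2 fold change -1.86) and 67192971 to 67194420 on chromosome 11 (-1.08), also lower at the later days.

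The falls were present at both later days. Against day 7, the fold change was negative in 18 of 18 at day 14 (log2 values -2.70 to -0.86, median -1.34) and in 18 of 18 at day 21 (-2.04 to -1.09, median -1.53). Both comparisons share the day 7 libraries, and the 18 were selected on the average of both days. Taken alone, day 14 against day 7 gave 0 called peaks in edgeR and in DESeq2, with 10373 at an unadjusted p under 0.05 in edgeR and 7726 in DESeq2. Leaving out a library gave 5 calls at day 14 (day 14 replicate 2, or day 21 replicate 1), 1 (day 21 replicate 2) or 7 (day 7 replicate 2), and there were 72 without the day 2 and day 3 libraries that stand apart. Such fits differ in the number of peaks tested, as given above. Day 21 against day 7 gave 8 called peaks (0.00552%), all lower and all among the 18. They began at 17009526 and 114006762 on chromosome 12, 169297494 and 78275156 on chromosome 1, 75370237 on chromosome 10, 118157302 on chromosome 11, 54891135 on chromosome 14 and 36928374 on chromosome 16. That count was 0 without day 7 replicate 1 or 3 and 18 (2 higher, 16 lower) without day 7 replicate 2. It was 6 (3 higher, 3 lower), 2 and 1 without day 21 replicates 1, 2 and 3. Without the day 2 and day 3 libraries that stand apart it was 165, of which 24 were higher and 141 lower. The day 21 value was the lower of both in 12 of the 18 falls. Between days 14 and 21 themselves, edgeR and DESeq2 both called 0 peaks, with 4757 and 2863 at an unadjusted p under 0.05, and the smallest adjusted p in edgeR was 1.00. Of the 18 falls, 2 had an unadjusted p under 0.05 there. A change in these peaks between days 14 and 21 was thus not detectable.

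Most of the falls were regions already more open at days 2 and 3 than in fibroblasts. Such peaks are called opened early here, and those lower in that comparison early-closed. The fibroblasts had dsRed virus, no inhibitor and a dsRed sort at day 7. Virus, inhibitors, sort and day thus differ together, and an opening over time cannot be told apart from them. At both day 2 and day 3, accessibility exceeded that of fibroblasts in 13 of the 18 (72.2%), against 14728 of all peaks tested (10.2%). The fall in the later weeks was not used to define that early set, nor the comparison with fibroblasts to call the falls. Both came from 1 fit with a shared estimate of spread, however, so they are not independent. The 10.2% is also not matched for level. In the highest quintile of average log2 CPM, which held 13 of the 18 falls, 25.7% of peaks had opened early. By comparison with fibroblasts, 17 of the 18 were called higher at day 7, 7 at day 14 and 4 at day 21, where the shares of all peaks tested were 15.5, 12.8 and 13.3%. Of the 18, 1 was called lower at each of days 14 and 21, against 9.70 and 10.1% of all peaks. These comparisons share the fibroblast libraries, and the last 3 also use libraries that selected the falls. In the step from days 2 and 3 to day 7, which called 488 peaks (0.337%) and shares the day 7 libraries, 0 of the 18 passed in edgeR (log2 fold changes -0.71 to 0.52, median 0.14). The 6 later libraries lay below all 6 of days 2 and 3 in 14 of the 18, against 2681 of all 144810 peaks. The falls were selected for low values in those later libraries, so part of that difference is set by the selection.

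A small downward shift was also seen over the early-opened peaks as a set. Among the 14728 peaks higher than in fibroblasts at both days 2 and 3, the median late change was -0.23 on the log2 scale, 76.7% lay below 0, and at an unadjusted p under 0.05 there were 2377 lower peaks and 84 higher. That median was between -0.29 and -0.17 when each of the 9 libraries was left out in turn, and -0.24 without day 14 replicate 3. The set's mean log2 CPM was 2.26, 2.28 and 2.42 in the day 7 libraries, 2.20, 2.06 and 1.91 at day 14 and 2.03, 2.07 and 2.21 at day 21. The day 7 and later libraries did not overlap, though day 14 replicate 1 and day 21 replicate 3 came close. Fibroblasts were at 0.52, 0.45 and 0.31, and every later library was far above them. The 8713 peaks (6.02%) lower than in fibroblasts at days 2 and 3 stayed low: their mean log2 CPM was 0.76 to 0.84 at day 7, 0.77 to 0.83 at day 14 and 0.85 to 0.88 at day 21, against 2.37 to 2.45 in fibroblasts. Their median late change was 0.02, which turned to as low as -0.05 when single libraries were left out (day 14 replicate 2 or 3, day 21 replicate 1 or 2), and 0 of them were called. The difference between both sets, which does not change when a whole library is rescaled, was 1.42 to 1.66 at day 7, 1.09 to 1.43 at day 14 and 1.16 to 1.36 at day 21. The ranges of days 7 and 14 overlapped narrowly there, through day 14 replicate 1.

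**Figure D3:**
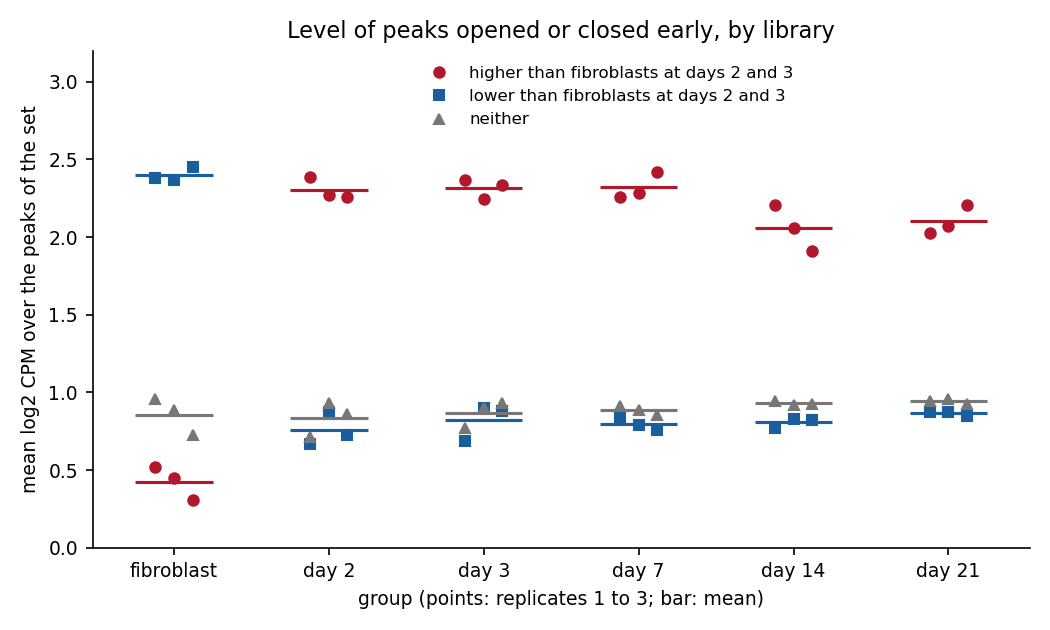
Mean log2 CPM over peaks higher than in fibroblasts at days 2 and 3 (red circles, 14728 peaks), lower (blue squares, 8713) and neither (grey triangles, 121369), for each library (points, replicates 1 to 3) by group, with a bar at the group mean. Red points of days 14 and 21 lie at 1.91 to 2.21, below the 2.26 to 2.42 of day 7 and far above the 0.31 to 0.52 of fibroblasts.

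This shift moved together with the level of the peaks. Sorted into quintiles by average log2 CPM, the tested peaks had a median late change of 0.24 in the lowest quintile, then 0.12, 0.05 and -0.04, and -0.19 in the highest. Peaks opened early made up 1.02% of the lowest quintile and 25.7% of the highest, and 13 of the 18 falls were in the highest quintile. Within each quintile the early-opened peaks had the lower medians. These ran -0.13, -0.14, -0.17, -0.20 and -0.26 from the lowest to the highest quintile, against 0.25, 0.12, 0.07, -0.01 and -0.17 for all others. The quintiles average all 18 libraries, fibroblasts included, where early-opened peaks are low by definition. At an equal average such peaks lie higher in other libraries. The quintiles thus do not match level within the contrast and cannot separate early opening from level. The lower share of counts in the strongest peaks in the later libraries, given above, moves with the same contrast, and its part in the falls was not tested. When the scaling was allowed to vary with peak level (trended normalization), 8 peaks were called, all lower, of which 7 were among the 18. With library totals alone, 0 were called, with 11675 at an unadjusted p under 0.05, and the median of all peaks moved to 0.27. The median of the early-opened set was then 0.04, which is below that of all peaks but no longer below 0.

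**Figure D4:**
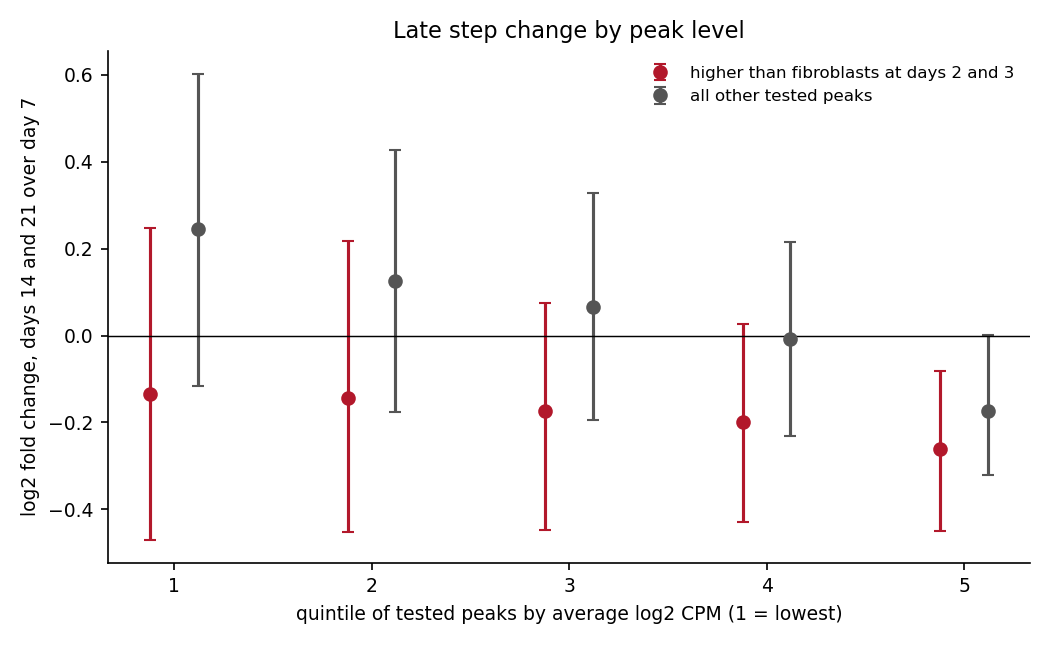
Median log2 fold change of days 14 and 21 over day 7 (points) with quartiles (bars), by quintile of tested peaks in average log2 CPM, for peaks higher than in fibroblasts at days 2 and 3 (red) and all others (grey). The grey medians run from 0.25 in the lowest quintile to -0.17 in the highest and the red ones from -0.13 to -0.26, with quartiles that overlap in each quintile.

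The tested peaks around the 18 falls leaned down as well. Within 10000 bases of a fall there were 118 other tested peaks, of which 102 (86.4%) had a late change below 0, against 49.6% of all peaks. Their median was -0.50, and at an unadjusted p under 0.05 there were 43 lower (36.4%, against 4.32% of all peaks) and 0 higher. The lean was not shared by every neighbourhood. Around 17758825 on chromosome 11 it was absent (2 of 5 neighbours below 0, median 0.10), and around 36928374 on chromosome 16 and 79751674 on chromosome 1 it was slight (medians -0.08 and -0.14). Around 118157302 on chromosome 11, by contrast, 7 of 7 neighbours were below 0 with a median of -1.16. Flanking peaks were not used to choose the falls, but neighbouring peaks are not independent of them. In width the falls were ordinary, with a median of 1623 bases against 1490, and their median level was 2.76 log2 CPM against 0.74 for all peaks.

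In the fit of all 18 libraries, 0 peaks were called higher in the later weeks (4634 at an unadjusted p under 0.05 in edgeR, and 0 called higher in DESeq2). The rises with the smallest p were in weak peaks. The leading one, at 21885094 to 21886350 on chromosome 10, held 0.396, 0.228 and 0.298 CPM at day 7 and 1.32, 1.39, 2.61, 1.34, 2.15 and 1.44 CPM in the later libraries (edgeR log2 fold change 2.29 with SE 0.48, adjusted p 0.0598). All 6 were above day 7, but the day 7 libraries held only 2 to 6 counts there. Fibroblasts held 0.925 to 1.80 CPM and day 2 libraries 1.31 to 2.45 CPM, so the later range met theirs. At day 7 the peak was lower than in fibroblasts (log2 fold change -1.96, adjusted p 0.00902 in edgeR). Next came 25211659 to 25212979 on chromosome 15 (2.21, adjusted p 0.0762), 185889958 to 185891334 on chromosome 1 (2.05, adjusted p 0.0825) and 101715150 to 101715852 on chromosome 13 (2.53, adjusted p 0.0971), in the last of which the groups overlapped. These 4 were the rises with an adjusted p under 0.1, and they were named after their values were seen. At day 2 the peak at 25211659 held 1.28 to 1.83 CPM, against 1.00 to 1.90 CPM in the later libraries. The peak at 185889958 held 0 to 1.22 CPM at day 2 and 1.68 to 4.04 CPM later. Among peaks with an average log2 CPM of 1 or more, the 5 rises with the smallest p had an adjusted p of 0.112 to 0.181. On chromosome 10, the peak at 51199839 to 51202630 held 1.39, 1.26 and 2.88 CPM at day 7 and 4.17, 4.02, 6.89, 3.12, 4.77 and 4.27 CPM in the later libraries, with all 6 above day 7 (edgeR log2 fold change 1.27 with SE 0.30, adjusted p 0.112). On chromosome 14, the peak at 8261048 to 8263190 held 1.06, 1.71 and 0.796 CPM at day 7 and 2.18, 2.16, 4.75, 3.68, 3.39 and 3.22 CPM later, where fibroblasts held 2.88 to 4.01 CPM (1.40, SE 0.34, adjusted p 0.129). That peak was lower than in fibroblasts at day 7 (adjusted p 0.00148 in edgeR). The others were at 68160210 to 68163275 on chromosome 15 (1.19, adjusted p 0.147), 34092294 to 34095427 on chromosome 12 (1.19, adjusted p 0.163) and 28708212 to 28710429 on chromosome 13 (1.29, adjusted p 0.181). In 4 of these 5 the later libraries were all above day 7, the exception being the one on chromosome 12. Apart from the one on chromosome 14, none of the 5 was called against fibroblasts at day 7.

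The fit without the day 2 and day 3 libraries that stand apart gave a spread of 21.1% (biological coefficient of variation) rather than 23.8% and tested 181081 peaks. Its 655 lower peaks (0.362%) held all 18 falls, 59.7% of them were higher than in fibroblasts at days 2 and 3, and 80.8% were in the highest level quintile. Its 42 higher peaks (0.0232%) held 3 that had opened early and 2 of the highest quintile. Early opening and level were defined over the 144810 peaks of the fit of all 18 libraries. There the early-opened set made up 10.2% of peaks and the highest quintile 20%. Called peaks outside those 144810 stay in the totals but cannot count as early-opened or highest quintile. The shares given here therefore have no matched background. The contrast itself used the same 9 libraries in both fits. Examples of its falls, chosen after their values were seen, were 155010548 to 155012037 on chromosome 1, which held 6.27, 2.51 and 6.66 CPM at day 7 and 0.769 to 4.04 CPM later (log2 fold change -1.61, adjusted p 0.000319), and 75209553 to 75210232 on the same chromosome (-1.59, adjusted p 0.0024). An example of its rises was 16902447 to 16903461 on chromosome 11 (1.42, adjusted p 0.0335), from 0.726, 0.685 and 1.49 CPM at day 7 to between 1.32 and 4.48 CPM later. With trended normalization in that fit, 25 peaks were called higher, 72.0% of them in the highest level quintile against 4.76% before, and 133 lower, with 17 of the 18 falls among the latter. A fit of the 9 libraries alone called 10 higher and 142 lower, with 16 of the 17 falls it tested.

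**Figure D5:**
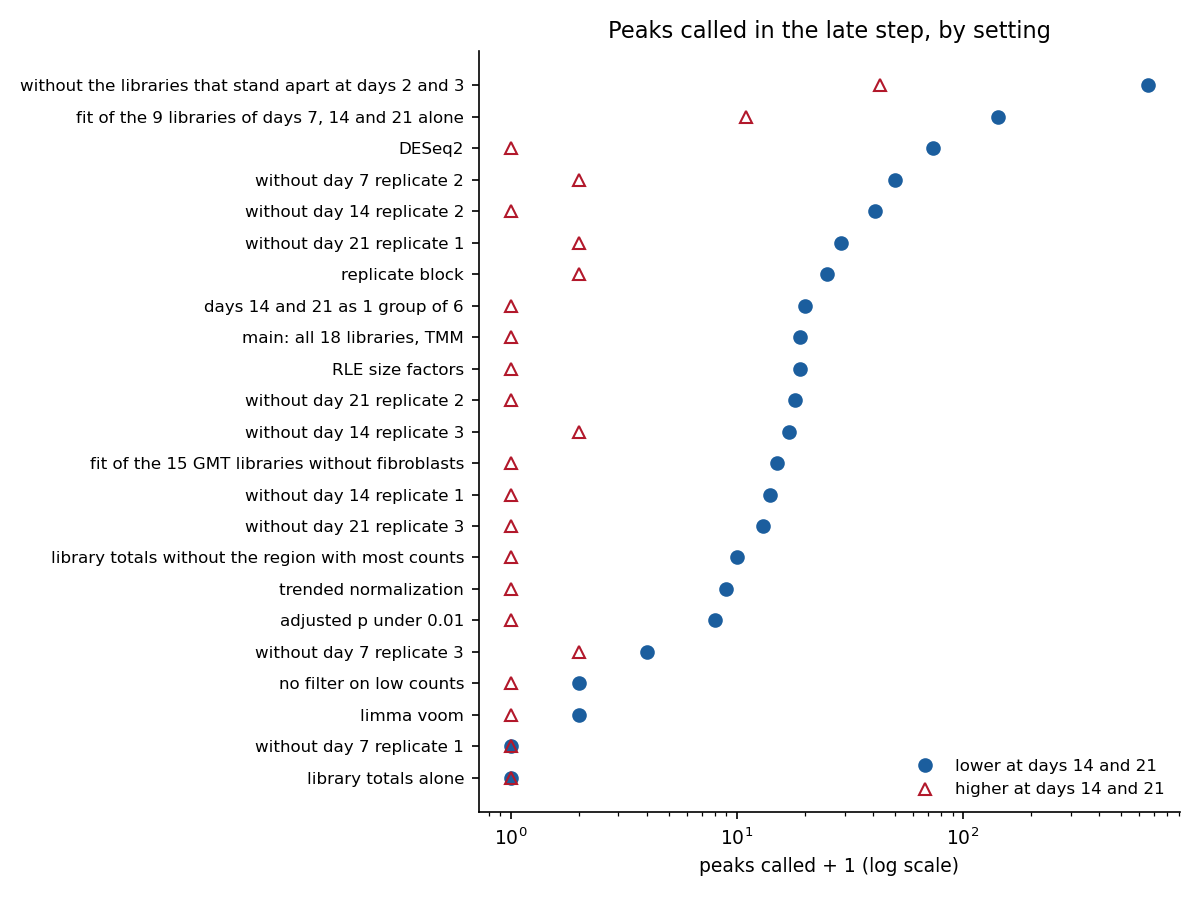
Number of peaks called lower (blue circles) and higher (red triangles) at days 14 and 21 than at day 7, plus 1, on a log scale, for each setting of the analysis (rows). Lower peaks outnumber higher ones in every setting with more than 0 calls, and the count runs from 0 without day 7 replicate 1 or with library totals alone to 655 lower peaks without the day 2 and day 3 libraries that stand apart.

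Over wider stretches no change passed the test. Of 10668 windows of 100000 bases, 0 were called in edgeR, with 641 higher and 522 lower at an unadjusted p under 0.05, while DESeq2 called 16, all lower. In 741 windows (6.95%) the 6 later libraries lay below day 7 and in 317 (2.97%) above. The windows with the smallest p among the lower ones began at 48800001 on chromosome 14, with 104, 92.5 and 110 CPM at day 7 and 62.0 to 80.7 CPM later, median 70.8 (edgeR log2 fold change -0.52 with SE 0.10, adjusted p 0.214), and at 72100001 on chromosome 17 (-0.60, adjusted p 0.214). The leading higher one began at 3100001 on chromosome 13 (0.46, adjusted p 0.428), and in each of these 3 the later libraries and day 7 did not overlap. Chromosome medians of the peak-level change lay between -0.05 on chromosome 11 and 0.03 on chromosome 14.

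Peaks with the largest changes between day 2 and day 21 showed only a part of that course after day 7. They were picked for that change, and the comparisons share the day 21 libraries. On chromosome 13, the peak at 83772366 to 83773128 held 42.3, 109 and 46.2 CPM at day 2, 5.88, 1.94 and 3.28 CPM at day 7 and 1.12 to 1.90 CPM at days 14 and 21 (late log2 fold change -1.38, adjusted p 0.234 in edgeR), so that most of its fall lay before day 7. The neighbouring peak at 83795713 to 83796137 had a late change of -1.66 (adjusted p 0.112). Reads from delivered factor sequence cannot be told apart from genomic reads in these counts. On chromosome 14, the peak at 55571939 to 55574039 held 0.640, 0.770 and 1.02 CPM at day 2, 4.03, 5.14 and 3.28 CPM at day 7, 3.37, 5.87 and 3.80 CPM at day 14 and 6.13, 8.31 and 9.94 CPM at day 21 (late change 0.52, adjusted p 0.676). Its neighbour at 55575169 to 55576060 went from 1.85, 1.14 and 1.39 CPM at day 7 to 2.05, 3.56 and 2.61 CPM at day 14 and 3.79, 3.85 and 5.47 CPM at day 21, with all 6 later libraries above day 7 (1.20, adjusted p 0.224), a rise that did not pass the test.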

How the data were processed

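ATAC-seq counts of 18 libraries in 6 groups of 3 were used, per the labels' 3 biological replicates per condition, without sequencing core or day of preparation by library. The deposited table holds whole-number read counts per region, not normalized by the authors. Per the submitters' processing notes the tools were Bowtie2, Picard, MACS2 and edgeR with build mm9. Versions, settings and adapter offset: not given in the sources used here. Positions are given as in the table. It covers chromosomes 1 and 10 to 16 and 17 up to 79.1 Mb (1393120 regions, with 1 incomplete line left out). The other 18 samples of the labels were not analysed here.

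Regions kept by filterByExpr (minimum count 10, minimum total 15) gave 144810 peaks, 10.4% of regions with 79.2% of counts. All 18 libraries entered 1 edgeR 4.0.16 fit (R 4.3.3, TMM, robust glmQLFit with 12 residual degrees of freedom), and glmQLFTest compared the mean of days 14 and 21 with day 7, two-sided. A peak was called at a Benjamini-Hochberg adjusted p under 0.05 over all peaks. CPM values use TMM-scaled library totals, and mean log2 CPM of a set uses a prior count of 2. Windows of 100000 bases held the summed counts of regions by midpoint. DESeq2 1.42.0 and limma 3.58.1 (voom) were alternatives. The fits without fibroblasts and with totals lacking the largest region were added after the data were seen. Counts carry counting error besides the spread between replicates.

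By the rule for named peaks, these were the 10 largest called falls among those with an average log2 CPM of 1 or more and all 6 later libraries below day 7, and, with no called rise, the 5 rises of that level with the smallest p. The other called falls and the weaker rises were added after their values were seen. The comparison and its lists were chosen with earlier results of these data known. Planned gene lists, cell type markers (so the sorted cell type was not checked) and motifs were left out, since they need a genome and gene models of the same build. Peaks therefore carry positions and no gene names. Within the 3 groups of the contrast, replicates differed by more than counting error (chi-square divided by degrees of freedom 2.08 to 12.8), so each counted as 1 sample.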

Additional observations from a re-analysis of the deposited data

Results flagged for a closer look

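In the peak at 78275156 to 78276298 on chromosome 1, day 14 replicate 1 (5.752 CPM) stood apart from the other 5 libraries of days 14 and 21 (1.78 to 3.09 CPM): its gap to the nearest took 0.67 of their whole range. Such a gap arises by chance in about 1 in 20 groups, and 1 was found among the peaks described singly. The same library had the highest day 14 mean over the early-opened set, 2.20 log2 CPM.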

How the results depend on the processing

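No called fall changed its direction under any alternative with a value. The median of the early-opened set turned from -0.23 to 0.04 with library totals alone, and that of the early-closed set from 0.02 to -0.14 with no filter. For days 14 and 21 against day 7 (18 called peaks) the count was 73 in DESeq2, 7 at an adjusted p under 0.01, 152 in the fit of the 9 libraries alone, 0 with library totals alone, 9 with totals lacking the largest region, 1 with voom, 1 with no filter, 8 with trended normalization and 697 without the day 2 and day 3 libraries that stand apart. It ran from 0 to 50 when each library was left out, and was 18 with RLE, 19 with both days as 1 group and 14 without fibroblasts. RLE kept all 18 falls, trended normalization 7, and DESeq2 all 9 to which it gave an adjusted p. For day 21 against day 7 (8) the counts were, for the same settings, 14 in DESeq2, 0 at 0.01, 28 in the 9 libraries, 0 with totals, 4 with totals lacking the largest region, 4 without fibroblasts, 0 with voom, 0 with no filter, 5 with trended normalization and 165 without the libraries that stand apart (0 to 18 with each library left out). For day 14 against day 7 (0) it was 72 without those libraries and 0 to 7 with each left out. Day 21 against day 14 gave 0 in every setting. The 100 kb windows gave 16 in DESeq2, 2 without those libraries and 0 otherwise. The cause of these differences was not tested.

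With a replicate block the late step gave 25 peaks (1 higher, 24 lower, all 18 falls among them), day 21 against day 7 gave 9, and the other comparisons 0. Replicate numbers did not pair the samples: deviations of same-numbered libraries correlated at -0.157 to 0.047. At 4.82 to 21.4 M counts, changes within the spread between replicates were not detectable.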
